A study of Mus musculus with 31 samples.

Results

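Type I interferon-stimulated genes (ISGs) are genes that cells switch on after they sense interferon alpha or beta. A list of 37 such genes was followed in alveolar macrophages (AM), the phagocytes that live in the air spaces of the lung. The 37 ISGs were selected by gene symbol, with earlier results of these data known, and all 37 are among the 13521 genes in the count table of the series. RNA of AM recovered by lavage was sequenced from mice of 2 genotypes, wild-type (WT) and RAGE null, after cigarette smoke (CS) or control conditions. RAGE is the receptor for advanced glycation end products, encoded by Ager. The WT mice were of the C57BL/6 strain (C57BL6 in the labels), and the RAGE null mice carried the null allele in all cells, in the homozygous state, on the same background. Mice of both genotypes were male and age matched, and the methods describe a colony of its own for each genotype. CS was given for 7 days or for 4 months in a machine that delivers mainstream and side-stream smoke. The 31 libraries, 1 per mouse, fall into 8 groups: control WT mice (n = 3), CS-exposed WT mice (n = 4), control RAGE null mice (n = 4) and CS-exposed RAGE null mice (n = 4) at 7 days, and 4 mice in each of the same groups at 4 months. The lavage cells were not sorted, so the libraries can hold RNA of other cells.

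Interferon alpha and beta bind a receptor of the Ifnar1 and Ifnar2 chains, whose kinases phosphorylate STAT proteins, Stat2 among them. Stat2 and Irf9 are subunits of the complex ISGF3, which binds interferon-stimulated response elements (ISREs) near the start of ISGs. The products of these genes sense viral nucleic acids, degrade RNA, stop translation, block the entry or release of virus, or limit the response itself, and AM are known as an early source of type I interferon in the infected lung.

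The core of the ISRE is a repeat of GAAA with a spacer, searched here as GAAA, any 2 bases and GAAA or, on the other strand, TTTC, any 2 bases and TTTC in the RefSeq windows of GRCm38.p6 from 250 bases before to 50 bases after each start. A window was found for 28 of the 37 ISGs, and 12 of these 28 held the motif in at least 1 window. Of the 34 windows of ISGs 35.3% held it, against 3.44% of all 32851 windows. The stretches below are those of 3 ISGs called in a comparison (Isg15, Rsad2 and Ifit1) and of Ifit3, the neighbour of Ifit1, with every base that belongs to a match in capitals and 20 bases on either side. A match describes the letters and is not a measured binding site. Adjacent matches run together in Isg15.
Isg15, chr4:156200855-156200916, minus strand: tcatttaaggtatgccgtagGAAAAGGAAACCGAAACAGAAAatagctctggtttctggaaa
Rsad2, chr12:26456543-26456592, minus strand: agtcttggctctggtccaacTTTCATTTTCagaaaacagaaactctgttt
Ifit1, chr19:34640765-34640833, plus strand: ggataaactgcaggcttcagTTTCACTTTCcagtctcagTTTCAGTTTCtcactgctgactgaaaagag
Ifit3, chr19:34583353-34583436, plus strand: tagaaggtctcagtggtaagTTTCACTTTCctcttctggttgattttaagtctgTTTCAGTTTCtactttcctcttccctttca
Ifit1 and Ifit3, neighbours on chromosome 19, each hold 2 matches, Isg15 holds 3 and Rsad2 holds 1. The other ISGs called in a comparison are not shown. Of these, Samd9l and Isg20 had no match, Eif2ak2 had 1 match that lies after the start, and Mx1, Oas2 and Rtp4 had no window. No match in a window says only that these letters are not there, as for 16 of the 28 ISGs with a window.

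Total counts per library ran from 11666879 to 19975073 at 7 days and from 12769797 to 34492288 at 4 months. Levels within a gene are given as CPM (counts scaled to library size and composition) and levels between genes as FPKM (fragments per kilobase of transcript, scaled to library size). All 10 AM markers, among them Marco, Pparg and Car4, were counted in every group. Their sum, mostly Chi3l3, was 15165 to 27291 CPM per library. In WT mice of 7 days it was 15165 to 18634 CPM in controls and 20954 to 24899 CPM after CS, while the RAGE null groups overlapped. At 4 months it was higher after CS in both genotypes, without overlap. At 7 days CS raised Marco and lowered Siglec5 in WT (log2 fold change 1.03 and -0.74) and RAGE null mice (0.94 and -0.62). Marco was higher in WT than RAGE null mice (1.15 in controls, 1.23 after CS). Ager itself does not check the genotype labels, since counts are given per gene and do not show which part of Ager was read: at 7 days it stood at 4.17 to 7.38 CPM in WT and 3.83 to 5.43 CPM in RAGE null mice, and at 4 months at 0.671 to 2.53 and 2.73 to 4.20 CPM. H2-T10, which like Ager lies on chromosome 17, separated the genotypes, with 2.90 to 6.34 CPM in WT libraries and 19.4 to 23.1 CPM in RAGE null libraries other than the one labelled RAGE null control 4 months replicate 2, which held 9.78 CPM. H2-M2, also on chromosome 17, stood at 1.29 CPM in that library, between 7 other RAGE null libraries of 4 months (0.0545 to 0.453 CPM) and the 8 WT libraries (4.09 to 8.14 CPM). Guca1b, a gene of low level on the same chromosome, stood at 0.566 CPM there, within the WT range (0.173 to 0.710 CPM). The 7 other RAGE null libraries of 4 months held 0 CPM of Guca1b. The alveolar epithelium markers of the library labelled RAGE null control 4 months replicate 2 summed to 13.1 CPM, against 84.9 to 198 CPM in the 3 other libraries of its group. Control WT mice of 4 months held 9.91 to 14.3 CPM. Why that library stands apart was not tested. Counts of ISGs and of the other lists that use this library are given with and without it where they differ. The library labelled WT CS 7 days replicate 0 had 2756 CPM of neutrophil markers, nearly all Ltf, against 32.8 to 55.4 CPM in the rest of its group. In bulk libraries, fewer cells of a type and less RNA per cell cannot be told apart.

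The level of the ISGs in AM spanned a wide range. Lgals3bp, which encodes a secreted galectin-3 binding glycoprotein, had the highest mean over the 31 libraries at 89.3 FPKM. Next came Bst2 (tetherin, which holds budding virus at the cell surface) at 47.8 FPKM, Trex1 (a DNA exonuclease) at 35.8 FPKM and Ifi35 (an interferon-induced cytoplasmic protein) at 22.5 FPKM. Ifi44, an interferon-induced protein, was the lowest at 0.0867 FPKM, below Cmpk2 (a mitochondrial nucleotide kinase) at 0.557 FPKM. In all, 9 ISGs were at or above 10 FPKM, 20 between 1 and 10 FPKM, and 8 below 1 FPKM. Mx1 was at 0.592 FPKM, Usp18 at 0.726 FPKM and Ifit1 at 1.07 FPKM. Parp9, the partner of Dtx3l, was at 12.3 FPKM, and Oas1a and Oas3, synthetases of the RNase L pathway like Oas2, at 6.07 and 0.774 FPKM. Of the 37 ISGs 9 overlap another listed gene (Irf7, Irf9, Sp100, Dhx58, Eif2ak2, Trex1, Dtx3l, Parp9 and Ifi35), and with no strand given for the counting, the reads of such pairs cannot be told apart.

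**Figure D1:**
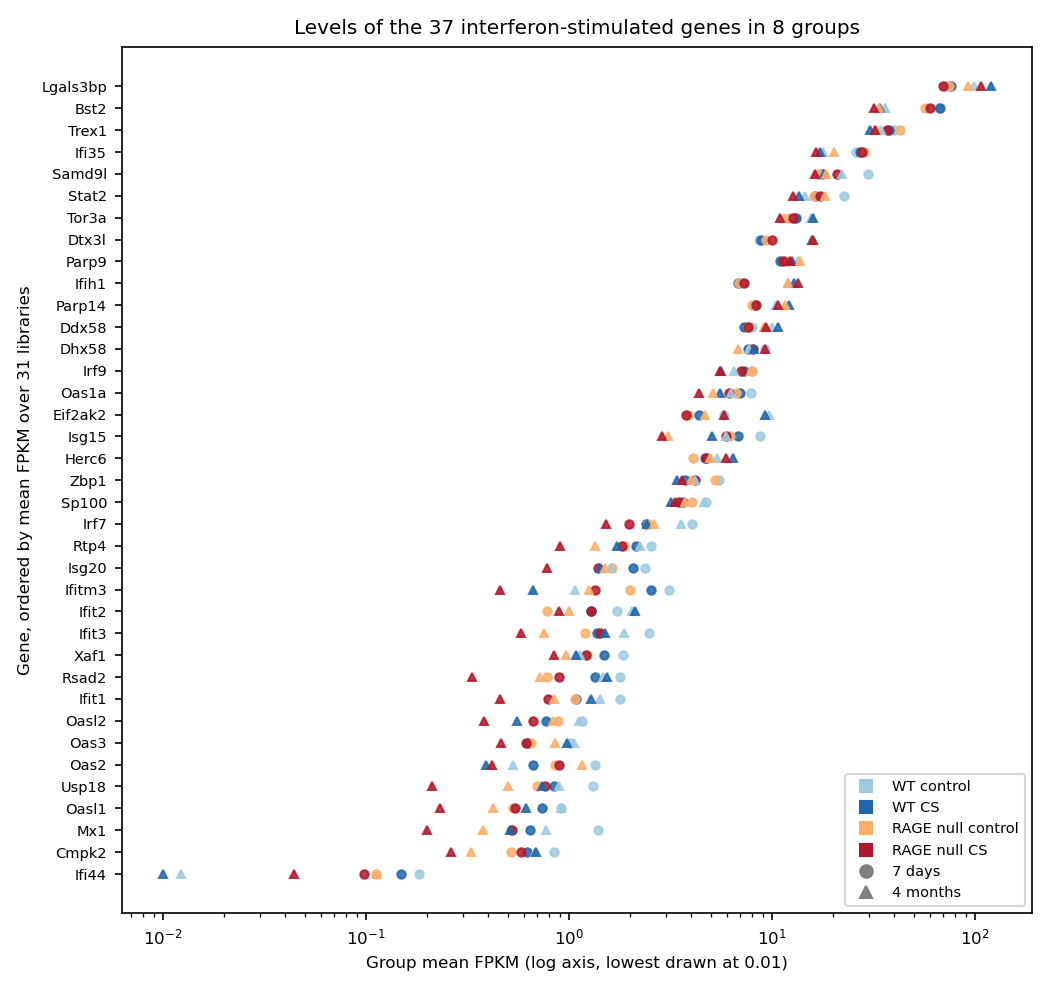
Mean FPKM of the 37 ISGs in each of the 8 groups on a log axis, with genes ordered by their mean over the 31 libraries and values under 0.01 drawn at 0.01. Lgals3bp (89.3 FPKM) is at the top and Ifi44 (0.0867 FPKM) at the bottom, and the spread between genes is much wider than that between groups of 1 gene.

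Levels of some ISGs differed between the 2 lengths of exposure in every library, about as often as those of all genes. Ifih1 (MDA5, a sensor of double-stranded RNA) ran from 33.1 to 44.8 CPM in the 15 libraries of 7 days and from 58.4 to 87.1 CPM in the 16 libraries of 4 months. Ddx58 (RIG-I, a sensor of viral RNA ends) ran from 46.1 to 57 and from 62.0 to 85.4 CPM. Dtx3l, a ubiquitin ligase, and Parp14, an ADP-ribosyltransferase, were likewise higher in every library of 4 months. Bst2 was the reverse, with 35.3 to 61.3 CPM at 7 days and 22.4 to 29.6 CPM at 4 months, as was Ifi35. These are 4 ISGs whose ranges did not overlap upward and 2 downward, against 9.44% and 6.93% of all genes. The length of exposure, the age of the mice and the preparation of the libraries cannot be told apart here, so no test was made.

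Within groups, ISGs with a low level varied together from mouse to mouse. The 18 ISGs under 10 CPM had a median standard deviation (SD) of 0.58 log2 units within groups, against 0.29 for all genes tested from 1 to 10 CPM. The 19 ISGs at or above 10 CPM had 0.14, against 0.12. Rsad2 (viperin, an enzyme that makes a chain-ending nucleotide) had an SD of 0.83, above that of 99.0% of the genes tested. Usp18, which removes Isg15 from proteins and silences the receptor, had 0.81, and Ifit3, an RNA-binding antiviral protein, 0.79. The mice of a group did not share the high values evenly. Among control WT mice of 4 months, replicate 0 had the lowest value in 28 of the 37 ISGs, while that library was lowest in 24.6% of all genes. In the same group replicates 2 and 3 were highest in 19 and 16 ISGs and lowest in none. Of the 3 control WT mice of 7 days, replicate 1 was highest in 24 ISGs (30.7% of all genes), and of the CS-exposed WT mice of 4 months replicate 1 was lowest in 26 (22.5% of all genes). Among CS-exposed RAGE null mice of 4 months, replicate 3 was highest in 22 ISGs (23.9% of all genes). Over the 31 libraries, deviations from the group mean of Ifit3, Ifit2 and Oas3 had a Pearson correlation of 0.89, 0.88 and 0.87 with the mean deviation of the other ISGs. For Irf9, Tor3a, Parp9 and Trex1 it was 0.11, 0.10, 0.08 and -0.13. These correlations describe the libraries, which the genes share, and depth and counting error enter them.

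**Figure D2:**
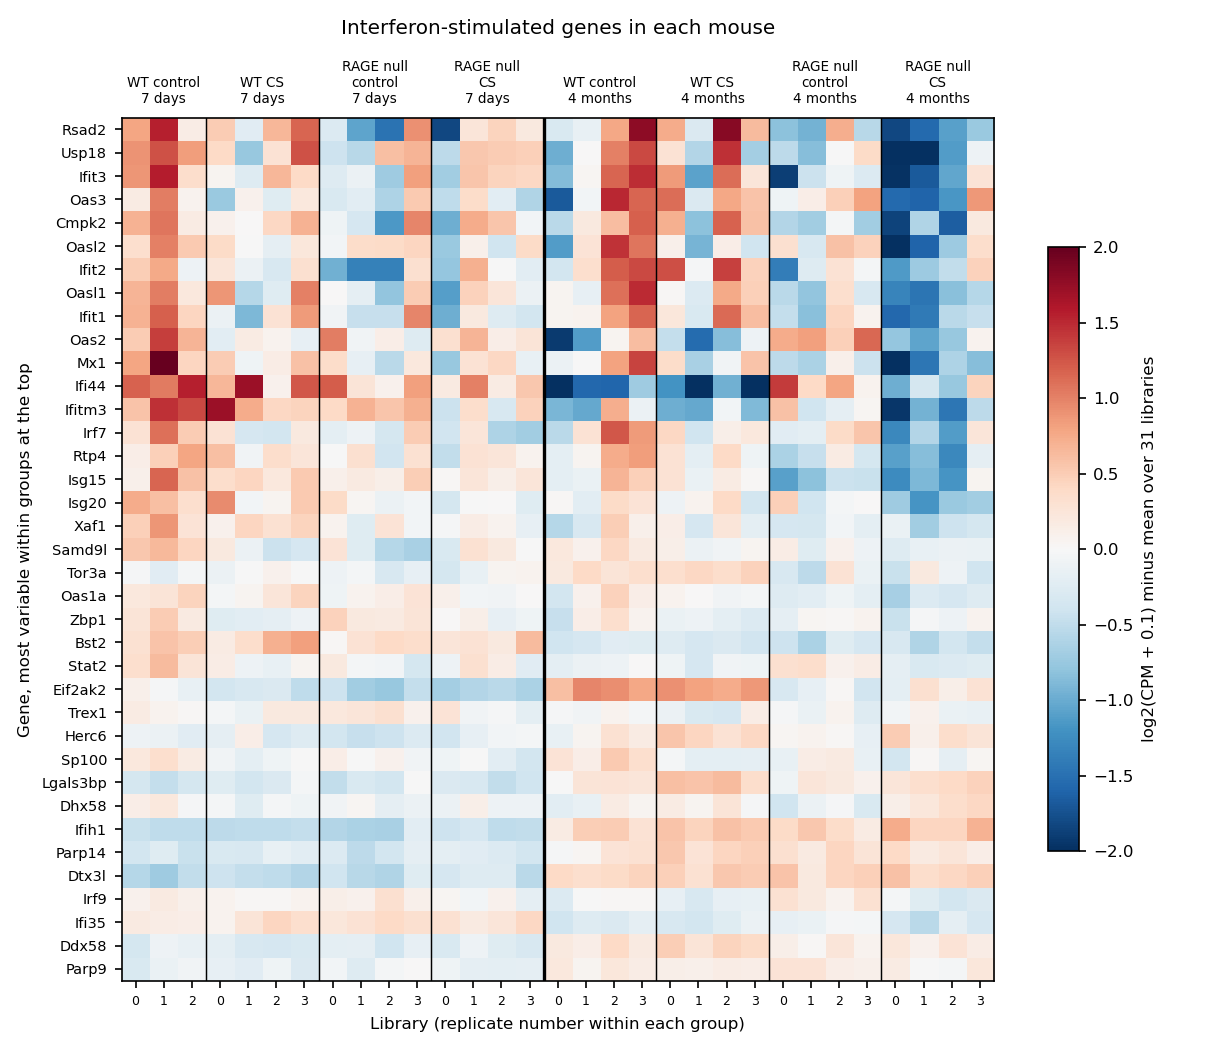
Deviation of each ISG (vertical axis, most variable within groups at the top) from its mean over the 31 libraries, in log2(CPM + 0.1), for every library (horizontal axis, by group). The upper part of the plot shows whole columns that are red or blue within 1 group, such as the blue column of control WT replicate 0 at 4 months, which was lowest in 28 ISGs.

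To ask whether 7 days of CS changed ISGs in WT mice, CS-exposed mice were compared with controls. Samd9l, which encodes a cytoplasmic antiviral protein, fell, and the 37 ISGs had a median log2 fold change of -0.26, with 31 of 37 below 0 against 50.5% of all genes. Called means here a fold change of 1.5 or more with an adjusted p under 0.05 by edgeR's quasi-likelihood test over all genes of a time point. By that rule 1 ISG of 37 (2.70%) was called, against 2.26% of all genes called and 1.28% called lower. Without a fold threshold 4 ISGs were lower and 0 higher at an adjusted p under 0.05, against 6.41% of all genes: Samd9l, Eif2ak2, Sp100 and Zbp1. At an unadjusted p under 0.05 there were 10 lower and 0 higher ISGs, against 12.8% and 12.1% of all genes. The 8 ISGs whose groups did not overlap were all lower after CS, against 10.2% of all genes. By role, all 4 transcription factors, all 4 sensors, all 8 nucleic acid and translation effectors and all 3 Ifit genes had a fold change below 0, with medians of -0.38, -0.15, -0.31 and -0.66.

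**Figure D3:**
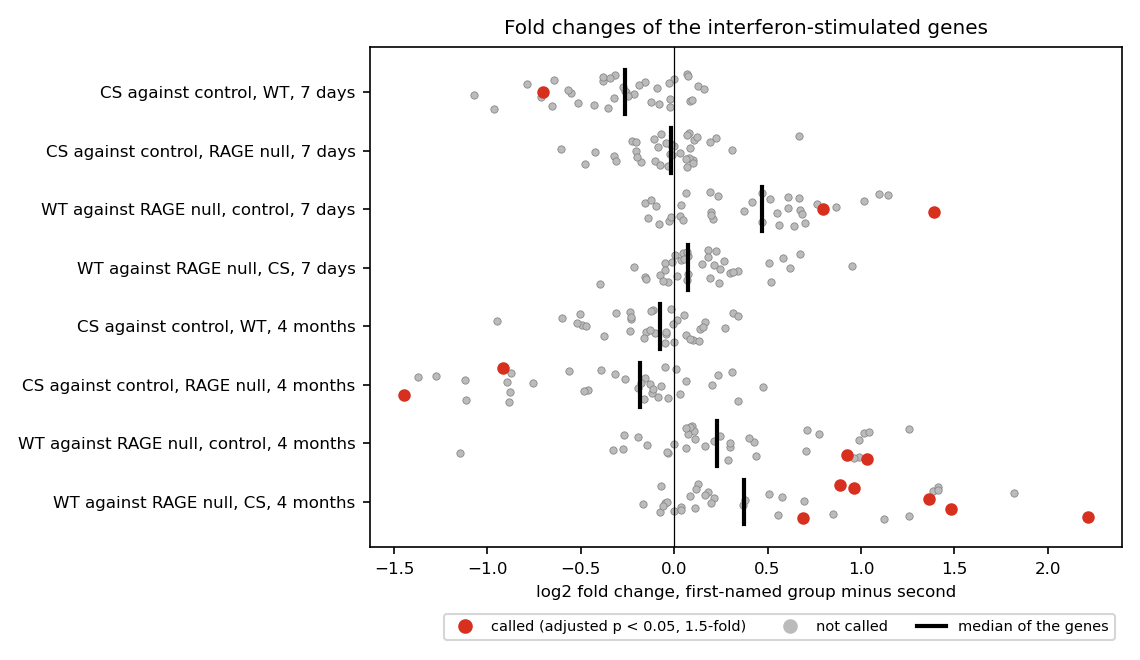
Log2 fold change of each ISG (points) in the 8 comparisons between 2 groups, as fitted, with the direction given by the first-named group. The points of CS against control in WT mice at 7 days lie mostly left of 0 (31 of 37) and those of WT against RAGE null in CS-exposed mice at 4 months mostly right of 0 (30 of 36).

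Samd9l stood at 152, 164 and 139.6 CPM in the 3 control WT mice of 7 days, and at 119, 95.9, 76.9 and 82.6 CPM in the 4 CS-exposed mice. Every CS-exposed mouse was below every control. The log2 fold change was -0.70 (SE 0.197, adjusted p = 0.0446). The call was lost when any 1 of 8 libraries was left out. Among WT libraries these were replicates 0 and 1 of the controls (adjusted p = 0.146 and 0.171) and replicates 1, 2 and 3 of the CS-exposed mice (0.0863, 0.113 and 0.107). Among RAGE null libraries they were replicate 1 of the controls (0.0543) and replicates 2 and 3 of the CS-exposed mice (0.0553 and 0.0579). Without control WT replicate 2 there were 3 calls, and without control RAGE null replicate 0 or 3 there were 2. Where such a count stands without a share of all genes, a gain in ISGs alone cannot be told from a gain in all genes. Without the library rich in Ltf, CS-exposed WT replicate 0, Samd9l was still the 1 ISG called and the median was -0.31.

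Other ISGs of WT mice at 7 days had small or uncertain differences. Eif2ak2 (PKR, the kinase that stops translation on double-stranded RNA) went from 30.3, 27.7 and 25.6 CPM in controls to 21.9, 22.5, 23.1 and 19.9 CPM after CS, with no overlap, a log2 fold change of -0.35 and an adjusted p of 0.0343. Zbp1, a sensor of Z-form nucleic acids, had -0.51 (adjusted p = 0.0134) and Sp100, a component of nuclear bodies, -0.32 (adjusted p = 0.0375), both also without overlap. The differences with the largest size did not pass the test. Mx1, a GTPase that blocks influenza virus and of which C57BL/6 mice carry a defective allele, was at 3.22, 8.52 and 2.47 CPM in controls and at 2.62, 1.70, 2.02 and 2.78 CPM after CS. Its groups overlapped, and the log2 fold change was -1.07 (adjusted p = 0.0984). Oas2, an oligoadenylate synthetase of the RNase L pathway, was at 4.25, 7.87 and 4.75 CPM in controls and at 2.54, 3.32, 3.09 and 2.63 CPM after CS, a log2 fold change of -0.97 (adjusted p = 0.0539) with no overlap. Ifit3 had -0.79 (adjusted p = 0.205) and Irf7, the factor that amplifies interferon production, -0.71 (adjusted p = 0.105), both with overlapping groups. Stat2 had -0.43 (adjusted p = 0.0742) and was lower in every CS-exposed mouse. The log2 fold change was 0.07 for Bst2, -0.02 for Ifih1 and -0.09 for Ddx58, with adjusted p-values from 0.522 to 0.895. Summed conventional dendritic cell markers were 30.1 to 41.9 CPM in controls and 18.3 to 30.6 CPM after CS, and monocyte and interstitial macrophage markers 804 to 971 and 600.3 to 688 CPM, with no marker of either list at 0 in a whole group. The monocyte sum is mostly Fn1 (830 ± 95.3 CPM in control WT mice, SD, n = 3). In the same comparison 3 of 5 airway markers were called higher, and 2 of 4 red cell and 1 of 6 monocyte markers (Ccr2, -0.86) lower. The part of these cells in the ISG values was not tested.

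In RAGE null mice 7 days of CS left the ISGs without a call. None of 37 was called by edgeR or by DESeq2, against 0.439% of all genes, and at an unadjusted p under 0.05 there were 1 higher and 4 lower ISGs, against 7.71% and 8.12% of all genes. The median log2 fold change was -0.02, with 15 ISGs above and 22 below 0 (49.2% of all genes). Samd9l was at 126, 87.6, 70.1 and 66.6 CPM in controls and at 84.2, 128, 119 and 103.5 CPM after CS, so its groups overlapped, with a log2 fold change of 0.31 (adjusted p = 0.439). The largest differences among ISGs at the level set for naming were 0.67 for Ifit2 (adjusted p = 0.402), -0.48 for Ifit1 (0.591), -0.43 for Oasl2 (0.420) and -0.32 for Irf7 (0.570). Summed dendritic cell markers went from 13.4 to 32.5 CPM in controls down to 10.8 to 12.8 CPM after CS, where 2 of 5 tested were called lower. Of 6 monocyte markers 2 were called lower, Cx3cr1 (-2.33) and Ccr2 (-0.81).

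The difference between genotypes in the response at 7 days was tested as an interaction, with the RAGE null response subtracted from the WT response. No ISG was called by edgeR or DESeq2, as was no gene of the whole table by edgeR (0%). At an unadjusted p under 0.05 there were 5 lower and 0 higher ISGs, against 9.02% and 6.84% of all genes, and the median was -0.18. Samd9l had -1.01 (SE 0.270, adjusted p = 0.155), Oas2 -1.04 (adjusted p = 0.233), Stat2 -0.53 (0.220), Eif2ak2 -0.32 (0.246) and Dhx58, which encodes the RIG-I-like helicase LGP2, -0.25 (0.313). When control RAGE null replicate 0 was left out, 2 ISGs were called.

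Among control mice at 7 days, Mx1 and Samd9l were higher in WT than in RAGE null mice. No ISG was called lower, so the calls were 2 of 37 (5.41%) against 4.78% of all genes called and 1.77% called higher. The median log2 fold change was 0.47, with 30 ISGs above 0 (51.2% of all genes). At an unadjusted p under 0.05 there were 16 higher and 0 lower ISGs, against 14.2% and 13.2% of all genes. By role, all 3 Ifit genes (median 1.01), all 6 antiviral effectors of membranes and nucleotides (0.64) and 7 of 8 nucleic acid and translation effectors (0.54) were above 0, while the 4 sensors, all above 0, had a median of 0.04.

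Samd9l of control RAGE null mice, at 126, 87.6, 70.1 and 66.6 CPM, lay below the WT controls given above (152 ± 12 CPM, SD, n = 3, against 87.7 ± 27.4 CPM, n = 4) in every mouse. The log2 fold change was 0.79 (SE 0.197, adjusted p = 0.0200), and the call was lost without RAGE null replicate 2 (adjusted p = 0.0582) or 3 (0.0558) or WT replicate 1 (0.101). Mx1 of control RAGE null mice was at 2.37, 1.6, 1.21 and 2.11 CPM, below the WT controls at 3.22, 8.52 and 2.47 CPM. Its log2 fold change of 1.39 (SE 0.381, adjusted p = 0.0315) rested on WT replicate 1: without it the value was 0.64 and the adjusted p 0.328. It was also lost without RAGE null replicate 1 (0.0613), 2 (0.0837) or 3 (0.0557). Without WT replicate 1 no ISG was called, without RAGE null replicate 1 or 2 there was 1 call, and without RAGE null replicate 0 or 3 or WT replicate 2 there were 4, 5 and 4. The control WT group that both genotype and CS comparisons of 7 days share holds 3 mice, of which replicate 1 was highest in 24 of the 37 ISGs. Rsad2 (1.14, adjusted p = 0.168), Ifit2 (1.10, 0.0794), Ifit3 (1.01, 0.0925), Usp18 (0.87, 0.178) and Irf7 (0.69, 0.0949) did not pass. Without a fold threshold 5 ISGs were higher at an adjusted p under 0.05 and 0 lower, against 9.89% of all genes. Eif2ak2 (0.56, adjusted p = 0.0016), Xaf1 (0.55, 0.0402) and Stat2 (0.47, 0.0417) passed the adjusted p at a fold under 1.5, with every WT mouse above every RAGE null mouse. Xaf1 encodes a partner of the apoptosis inhibitor Xiap, and Stat2 a subunit of ISGF3. All 7 alveolar epithelium markers were called lower in WT, with a sum of 32.0 to 64.7 CPM in control WT and 149 to 344 CPM in control RAGE null mice. In addition, 2 of 6 monocyte and 1 of 4 neutrophil markers were called lower, and 1 of 5 dendritic cell markers, Clec9a, was called higher. Their part in the ISG values was not tested.

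After 7 days of CS no ISG differed between the genotypes by the test. None of 37 ISGs was called by edgeR or DESeq2, against 2.2% of all genes by edgeR, with 3 higher and 0 lower at an unadjusted p under 0.05 (8.82% and 9.99% of all genes). The median was 0.07, with 27 ISGs above 0 (50.3% of all genes). Rsad2 had the largest difference of those at the level set for naming, at 5.32, 3.16, 5.92 and 8.47 CPM in WT and 0.978, 4.41, 5.09 and 4.27 CPM in RAGE null mice, with overlap and a log2 fold change of 0.67 (adjusted p = 0.523). Isg20, an RNA exonuclease, had 0.58 (adjusted p = 0.166), Ifit1 0.52 (0.531) and Oas2 -0.40 (0.487). Ifitm3, which keeps virus from fusing with endosomes, lies at a lower level (0.587 to 2.94 CPM in the 8 libraries) and had 0.95 (0.145). In this comparison 3 of 5 dendritic cell markers were called higher in WT and 6 of 7 epithelium markers lower.

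In WT mice 4 months of CS gave no ISG call. None of the 36 ISGs tested was called by edgeR or DESeq2, against 5.67% of all genes by edgeR, and 4 were higher and 2 lower at an unadjusted p under 0.05 (14.6% and 13.9% of all genes). The median was -0.08, with 12 ISGs above and 24 below 0 (51% of all genes). At an adjusted p under 0.05 and any fold there were 3 higher and 1 lower ISGs, against 14.3% of all genes. Lgals3bp went from 248, 298, 300.1 and 295 CPM in controls to 379, 369, 385 and 318 CPM after CS, without overlap, at a log2 fold change of 0.34 (adjusted p = 0.0131). Herc6, the mouse ligase for Isg15, had 0.32 (adjusted p = 0.0400) and Parp14 0.27 (0.0372), while Sp100 had -0.47 (0.0068), all under 1.5-fold. Oasl2, which encodes an oligoadenylate synthetase-like protein, went from 1.19, 3.26, 7.42 and 5.74 CPM to 2.89, 1.36, 2.95 and 2.01 CPM, with overlap and a log2 fold change of -0.95 (adjusted p = 0.227). The mice of both groups ranged widely: Rsad2 stood at 3.01, 3.35, 6.39 and 13.1 CPM in controls and 6.26, 3.02, 13.3 and 5.84 CPM after CS (log2 fold change 0.13, adjusted p = 0.892).

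In RAGE null mice Oas2 and Isg20, both of the nucleic acid effectors, fell with 4 months of CS. These are 5.56% of the 36 tested, against 7.27% of all genes called and 4.43% called lower. The median log2 fold change was -0.19, with 28 of 36 below 0 (51.4% of all genes), and 7 ISGs did not overlap downward and 3 upward, against 8.02% and 8.56% of all genes. Oas2 was at 4.97, 5.29, 4.12 and 6.68 CPM in controls and at 1.69, 1.36, 1.70 and 3.08 CPM after CS, with every CS-exposed mouse below every control. Its log2 fold change was -1.45 (SE 0.423, adjusted p = 0.0252). The call was lost without control replicate 3 (adjusted p = 0.0752) or CS-exposed replicate 1 (0.0758) or 2 (0.0706). Isg20 was at 3.83, 2.04, 2.62 and 2.74 CPM in controls and at 1.62, 1.14, 1.58 and 1.64 CPM after CS, also without overlap, at -0.92 (SE 0.226, adjusted p = 0.0104), and kept its call whichever library was left out.

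Other ISGs of RAGE null mice at 4 months had fold changes under 1.5 or wide errors. At an adjusted p under 0.05 and any fold 3 were higher and 5 lower, against 20% of all genes. Stat2 went from 87.5, 89.3, 74.7 and 77.7 CPM to 61.9, 56.9, 58.4 and 59.4 CPM, at -0.48 (adjusted p = 0.00035), and Irf9, its partner in ISGF3, from 46.0, 42.3, 38.8 and 45.9 CPM to 36, 31.3, 28.6 and 30.3 CPM, at -0.46 (adjusted p = 0.0016). In both genes all CS-exposed mice were below all controls. Dhx58 was higher after CS at 0.47 (adjusted p = 0.0048), with 21.0 to 27.2 CPM in controls and 29.8 to 36.9 CPM after CS, and so was Eif2ak2 at 0.34 (0.0454) with overlap. Oasl2 (-1.12, adjusted p = 0.152), Rsad2 (-1.12, 0.205), Mx1 (-0.90, 0.159) and Ifit1 (-0.88, 0.144) did not pass. All 6 antiviral effectors of membranes and nucleotides were below 0 (median -0.73), as were the 3 Ifit genes (-0.39). Leaving out CS-exposed replicate 3, which was highest in 22 ISGs, gave 5 calls. Without the library labelled RAGE null control 4 months replicate 2 the same 2 ISGs were called, the median was -0.13 and 9.84% of all genes were called. Monocyte and interstitial macrophage markers summed to 2268 to 3568 CPM in control and 807 to 1586 CPM in CS-exposed RAGE null mice, and to 1383 to 1996 and 611 to 974 CPM in WT mice, dendritic cell markers to 14.8 to 23.5 and 6.32 to 8.34 CPM, and to 29.0 to 51.5 and 10.1 to 13.4 CPM, with no marker of these lists at 0 in a whole group. The monocyte sum is nearly all Fn1 (2703 ± 602 CPM in control and 1208 ± 321 CPM in CS-exposed RAGE null mice, SD, n = 4 each), and C1qb (-4.91), C1qa (-4.73) and Cx3cr1 (-2.35) had larger log2 fold changes. In RAGE null mice 5 of 6 monocyte, 3 of 6 dendritic cell, 5 of 7 alveolar epithelium, 2 of 5 airway and 2 of 2 red cell markers were called lower after CS. The part of these cells in the ISG values was not tested.

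Control WT and RAGE null mice at 4 months differed in 2 ISGs. Eif2ak2 and Isg15, the ubiquitin-like modifier that is joined to proteins after interferon, were higher in WT, 5.56% of the 36 ISGs against 6.97% of all genes called and 3.43% called higher. The median log2 fold change was 0.23, with 28 above (49.3% of all genes) and 8 below 0, and at an unadjusted p under 0.05 there were 12 higher and 4 lower ISGs (17.7% and 18.5% of all genes). Isg15 was at 3.32, 3.47, 6.21 and 5.37 CPM in WT and 1.76, 2.11, 2.83 and 2.80 CPM in RAGE null mice, with every WT mouse higher. Its log2 fold change was 0.92 (SE 0.278, adjusted p = 0.0290), and the call was lost without RAGE null replicate 0 (adjusted p = 0.077) or 1 (0.0673) or WT replicate 2 (0.0977) or 3 (0.0629). Ifit3 had the largest difference at the level set for naming, 1.26 (adjusted p = 0.131), before Oas2 at -1.15 (0.0563) and Ifit2 at 0.99 (0.109). The groups of all 3 genes overlapped. Stat2 (-0.33, adjusted p = 0.0062) was lower in WT, and so was Oas2 by its value, against the direction of the median. Without the library labelled RAGE null control 4 months replicate 2, which held the highest Rsad2 of its group (6.23 CPM against 1.89 to 2.51 CPM), 7 ISGs were called higher (Eif2ak2, Isg15, Mx1, Oasl1, Rsad2, Rtp4 and Tor3a) and Oas2 lower, the median was 0.28, and 11.3% of all genes were called. Leaving out WT replicate 0 gave 5 calls and WT replicate 1 gave 4, while leaving out RAGE null replicate 0 or 1 or WT replicate 2 gave 1. All 7 alveolar epithelium markers were called lower in WT (median log2 fold change -3.60, with sums of 9.91 to 14.3 CPM in WT and 13.1 to 198 CPM in RAGE null mice), 5 of 6 dendritic cell and 1 of 3 T and NK cell markers were called higher, and 1 of 6 monocyte and 2 of 2 red cell markers lower. Their part in the ISG values was not tested. DESeq2 called 6 ISGs, Ifi44 among them, which at 4 months had 0 to 3 counts per library in control WT and 7 to 15 in control RAGE null mice and was too low for the edgeR test.

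After 4 months of CS, WT mice had more of 6 ISGs than RAGE null mice, and no ISG was called lower. The genes were Rsad2, Ifit1, Mx1, Rtp4, Isg20 and Eif2ak2, 16.7% of the 36 ISGs against 4.94% of all genes called and 2.97% called higher. The median log2 fold change was 0.37, with 30 of 36 above 0 (48.6% of all genes), and 17 ISGs were higher and 0 lower at an unadjusted p under 0.05 (13.1% and 12.5% of all genes). By role, the 3 Ifit genes (median 1.41) and the 6 antiviral effectors of membranes and nucleotides (1.16) had the widest differences, all above 0, then the 8 nucleic acid and translation effectors (0.63, 6 above 0). The 6 genes of the Isg15, ubiquitin and ADP-ribose group had a median of 0.16, the 4 transcription factors 0.07 and the 4 sensors -0.05. The comparison shares its mice with those of CS against control, and it rests on the level of both groups after CS.

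Rsad2 was at 6.26, 3.02, 13.3 and 5.84 CPM in CS-exposed WT and at 0.983, 1.20, 1.70 and 2.19 CPM in CS-exposed RAGE null mice of 4 months. Every WT mouse was higher, and the log2 fold change was 2.21 (SE 0.568, adjusted p = 0.0206). The call was lost without RAGE null replicate 0 (adjusted p = 0.0618) or WT replicate 2 (0.0772). Ifit1, whose product binds viral RNA ends, was at 2.94, 2.01, 5.62 and 3.89 CPM in WT and 0.772, 0.872, 1.70 and 1.78 CPM in RAGE null mice, again with every WT mouse higher, at 1.48 (SE 0.396, adjusted p = 0.0254). It was lost without RAGE null replicate 0 (0.0756) or 1 (0.0637) or WT replicate 2 (0.0905). Isg20 was at 2.52, 2.84, 3.60 and 2.1 CPM in WT and 1.62, 1.14, 1.58 and 1.64 CPM in RAGE null mice, without overlap, at 0.89 (SE 0.226, adjusted p = 0.0200), and was lost without RAGE null replicate 1 (0.0555) or WT replicate 1 (0.0546) or 2 (0.0723).

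Mx1 and Rtp4 were the weakest of the 6 calls. Mx1 was at 2.36, 1.12, 1.73 and 2.75 CPM in CS-exposed WT and 0.351, 0.599, 1.15 and 0.959 CPM in CS-exposed RAGE null mice, which overlap at 1 mouse of each, with a log2 fold change of 1.36 (adjusted p = 0.0471). Rtp4, a chaperone of membrane receptors that interferon induces, was at 3.27, 2.31, 3.53 and 2.48 CPM and 1.19, 1.42, 1.03 and 2.33 CPM, also with overlap, at 0.96 (adjusted p = 0.0484). Each was lost when any 1 of 9 libraries of 4 months was left out, with adjusted p-values of 0.0528 to 0.129 for Mx1 and 0.0516 to 0.132 for Rtp4. Both needed replicates 0 and 1 of the CS-exposed RAGE null mice, replicates 0, 2 and 3 of the CS-exposed WT mice, replicate 3 of the RAGE null controls and replicate 2 of the WT controls. Mx1 also needed RAGE null control replicate 0 and RAGE null CS replicate 3, and Rtp4 needed RAGE null CS replicate 2 and WT CS replicate 1. In all, the count of 6 fell to 1 without CS-exposed WT replicate 2, to 2 without CS-exposed RAGE null replicate 0 and to 3 without its replicate 1.

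Other ISGs of CS-exposed mice at 4 months lay the same way without a call. Usp18 had 1.82 (adjusted p = 0.120), with 1.28, 0.651, 3.03 and 0.604 CPM in WT and 0.140, 0.0545, 0.424 and 0.959 CPM in RAGE null mice, which overlap. Oasl1, in mice a repressor of Irf7 translation, had 1.41 (adjusted p = 0.0512) without overlap, Ifit3 1.41 (0.159) and Ifit2 1.26 (0.0781). Tor3a, an interferon-induced ATPase of the torsin family, had 0.55 (adjusted p = 0.0261), with 63.7 to 68.9 CPM in WT and 36.7 to 57.5 CPM in RAGE null mice. Ddx58 had 0.21 (adjusted p = 0.0587) and Stat2 0.11 (0.354), while Oas2 had -0.08 (0.943). Without the library labelled RAGE null control 4 months replicate 2, which enters this comparison only through the shared error, Oasl1 was added to the calls. Of the markers of other cells, 1 of 6 dendritic cell markers was called higher in CS-exposed WT mice of 4 months, and 1 of 6 monocyte and 1 of 7 epithelium markers lower, or 2 and 7 without the library labelled RAGE null control 4 months replicate 2. The 8 libraries held 10.1 to 13.4 CPM of dendritic cell markers in WT and 6.32 to 8.34 CPM in RAGE null mice, and their part was not tested.

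**Figure D4:**
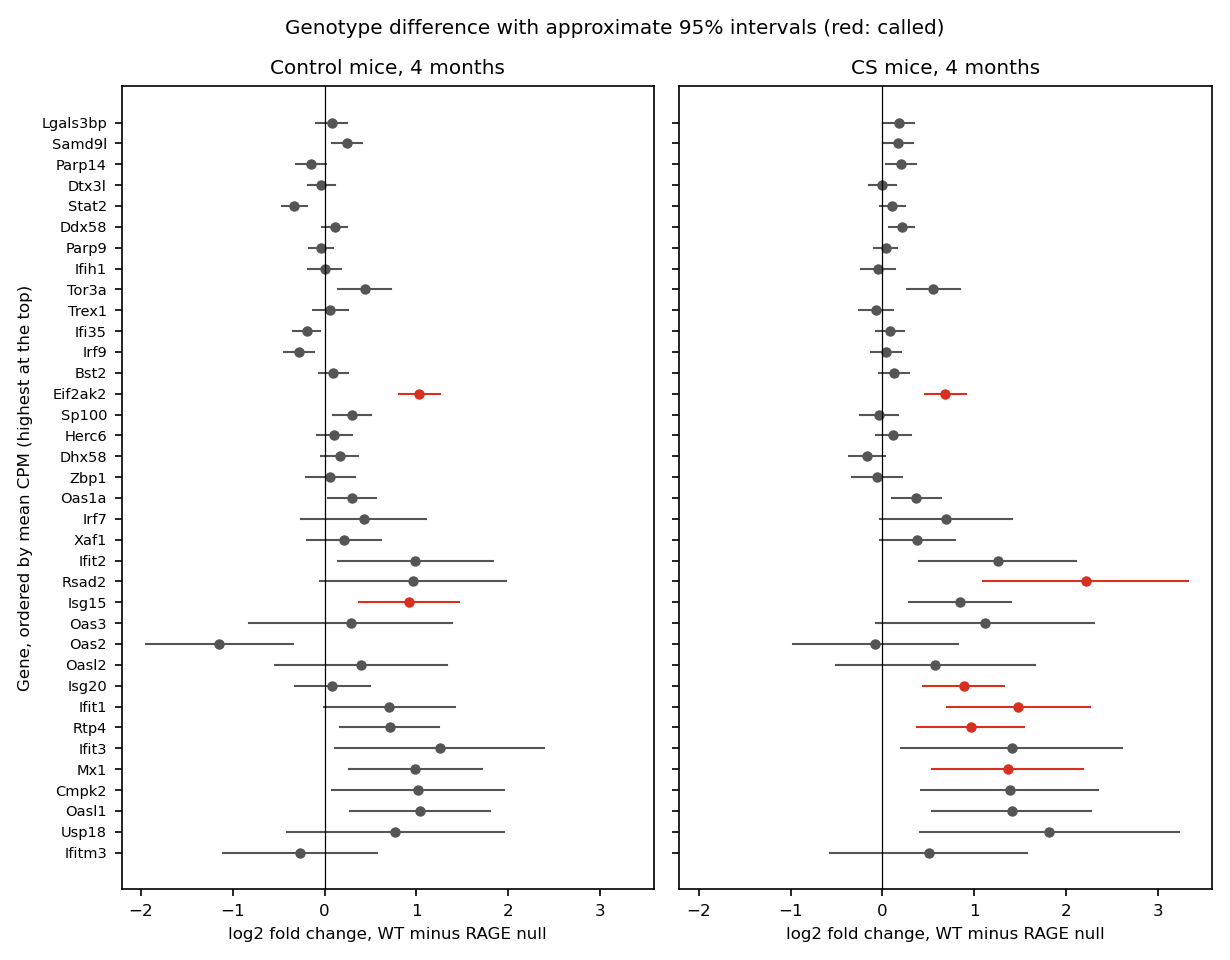
Log2 fold change of WT minus RAGE null at 4 months for the 36 ISGs tested, in control mice (left) and CS-exposed mice (right), with approximate 95% intervals and genes ordered by mean CPM. Calls are in red: Eif2ak2 and Isg15 in control mice, and 6 genes in CS-exposed mice, where the ISGs of low level toward the bottom have the largest differences and the widest intervals.

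At 4 months Eif2ak2 was called in both comparisons of genotypes, and both calls held whichever library was left out. At 4 months its libraries held 43.1, 55.7, 53.8 and 48.5 CPM in control WT, 53.1, 49.5, 47.5 and 51.9 CPM in CS-exposed WT, 22.7, 25.3, 28.7 and 21.6 CPM in control RAGE null, and 24.6, 35.3, 30.7 and 34.7 CPM in CS-exposed RAGE null mice. All 8 WT libraries lay above all 8 RAGE null libraries, which held for no other ISG and for 1.31% of all genes. The log2 fold change was 1.03 (SE 0.113, adjusted p = 4.8e-05) in control and 0.69 (SE 0.112, adjusted p = 0.0011) in CS-exposed mice. At 7 days it was 0.56 in control and 0.24 (adjusted p = 0.140) in CS-exposed mice. The library labelled RAGE null control 4 months replicate 2 held 28.7 CPM, within the range of the other RAGE null libraries of 4 months (21.6 to 35.3 CPM). Eif2ak2 (chr17:78852564-78882573 of mm10, minus strand) is the only one of the 37 ISGs on chromosome 17, where Ager lies 44.3 Mb away. Its gene overlaps another listed gene, ENSMUSG00000085149.

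**Figure D5:**
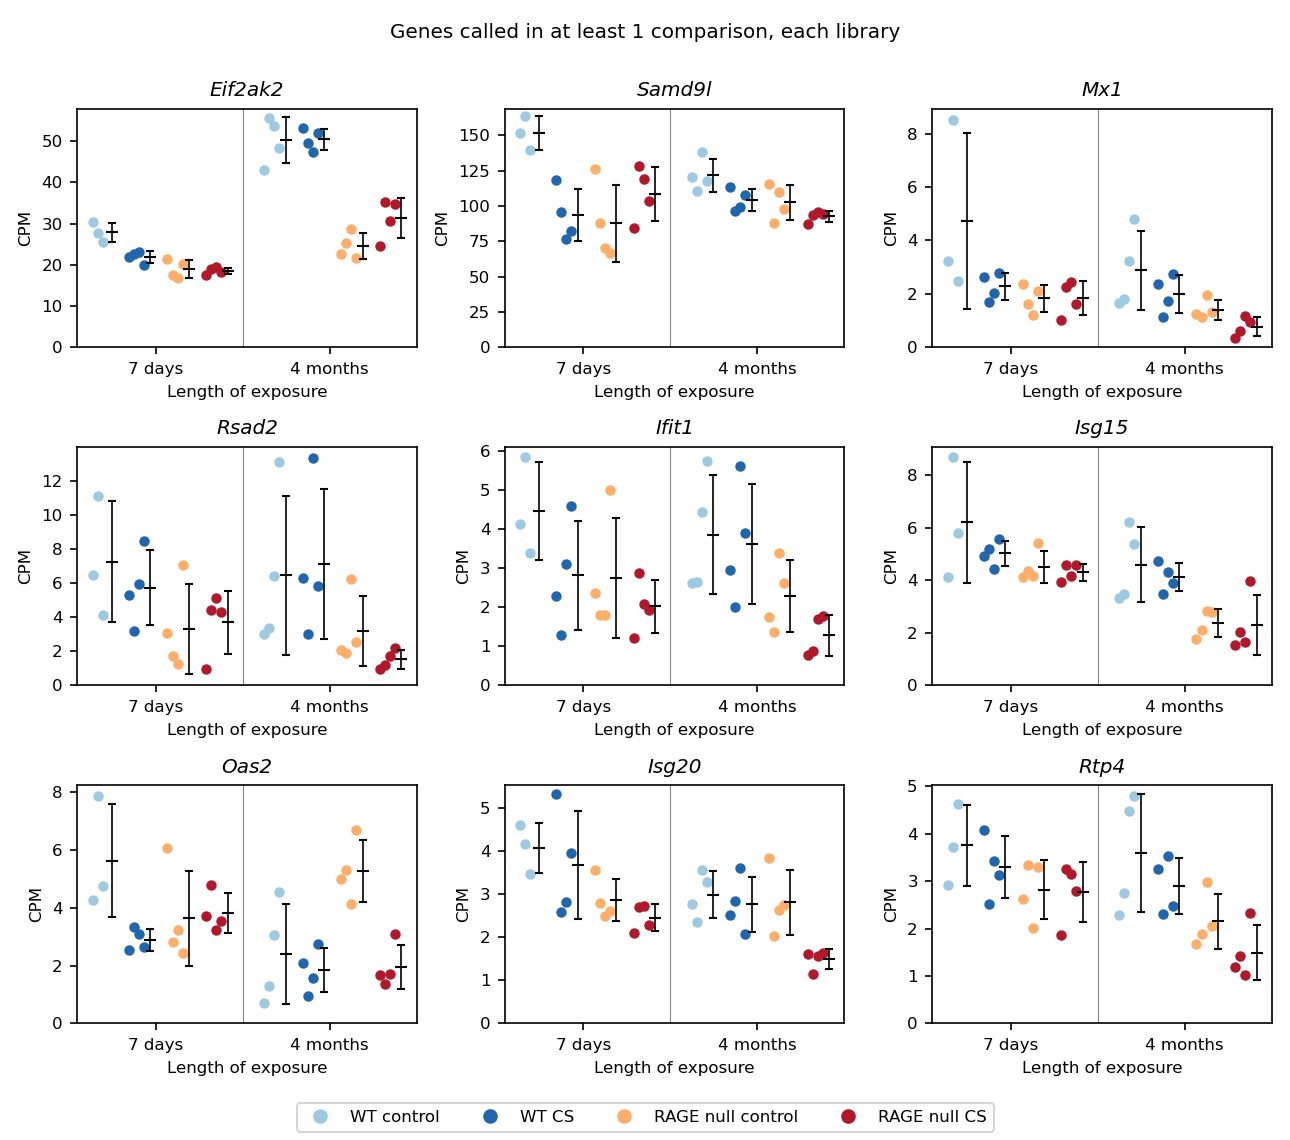
CPM of the 9 ISGs called in at least 1 comparison, in each library (points), by length of exposure, genotype and exposure, with each axis starting at 0. For Eif2ak2 all 8 WT libraries of 4 months (43.1 to 55.7 CPM) lie above all 8 RAGE null libraries (21.6 to 35.3 CPM), while Mx1 and Rsad2 spread widely within groups.

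The interaction at 4 months gave no ISG call by edgeR or DESeq2, against 0.0383% of all genes by edgeR, with 5 higher and 3 lower ISGs at an unadjusted p under 0.05 (6.43% and 5.6% of all genes). Without the library labelled RAGE null control 4 months replicate 2 there was still no call, against 0.563% of all genes, and the median of the ISGs was 0.07 in place of 0.17. Thus the 6 calls among CS-exposed mice and the 2 among controls were not shown to differ from each other: Rsad2 had an interaction of 1.25 (SE 0.771, adjusted p = 0.537) and Isg20 0.80 (SE 0.308, adjusted p = 0.319). Stat2 had 0.44 (SE 0.0986, adjusted p = 0.115), from a fold change of -0.05 with CS in WT and -0.48 in RAGE null mice.

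The response to 4 months of CS was compared with that to 7 days in a fit of all 31 libraries. No ISG of 37 was called in either genotype by edgeR or DESeq2, against 0.783% of all genes in WT and 1.86% in RAGE null mice by edgeR. In WT mice 6 ISGs were higher and 0 lower at an unadjusted p under 0.05 (9.1% and 8.98% of all genes), and in RAGE null mice 3 higher and 6 lower (8.55% and 9.38%). The median was 0.18 in WT and -0.28 in RAGE null mice. Stat2 in RAGE null mice passed the adjusted p below the fold threshold: its response was 0.10 at 7 days and -0.48 at 4 months, a difference of -0.58 (SE 0.152, adjusted p = 0.0367). At 7 days Stat2 stood at 80.4, 68.4, 68.0 and 55.3 CPM in control and 65.8, 88.3, 78.1 and 60.1 CPM in CS-exposed RAGE null mice, which overlap, while at 4 months the groups given above do not. Without the library labelled RAGE null control 4 months replicate 2 Stat2 was called, as 1 ISG was without CS-exposed RAGE null replicate 0 of 4 months or replicate 0 or 3 of 7 days, and 3 were without control RAGE null replicate 0 of 7 days. Oas2 had -1.51 (adjusted p = 0.110) and Dhx58 0.45 (0.0579). The calls of the 7-day and 4-month parts come from separate mice.

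Genes around the ISGs in the pathway gave few calls. The 20 ligand genes of the list, among them Ifnb1, are not analysed here. Of 10 receptor and JAK-STAT genes tested, Ifngr1, a chain of the interferon gamma receptor, was the only one called at 4 months, lower after CS in RAGE null mice (222 ± 43.0 CPM against 348 ± 114 CPM, SD, n = 4 each, log2 fold change -0.66, adjusted p = 0.0190) and lower in control WT than RAGE null mice (-0.65, adjusted p = 0.0210), and none was called at 7 days. Of 12 sensor adaptors and kinases, Trim25, the ubiquitin ligase that activates RIG-I, fell after CS in WT mice at 7 days from 373 ± 59.3 CPM (n = 3) to 227 ± 9.52 CPM (n = 4) (-0.72, adjusted p = 0.0014) and at 4 months (-0.63, adjusted p = 0.0168). Ikbke, a kinase of Irf3 and Irf7, was higher in CS-exposed WT than RAGE null mice at 4 months (19.9 ± 2.87 against 6.71 ± 2.25 CPM, 1.55, adjusted p = 0.0142), while Trim25 was lower there (-0.69, adjusted p = 0.0133). Of 7 interferon regulatory factors outside the 37, Irf4 fell after 4 months of CS in WT (-1.06, adjusted p = 0.0105) and RAGE null mice (-1.19, adjusted p = 0.0065), and Irf5 fell in RAGE null mice (-0.61), which was no longer a call without the library labelled RAGE null control 4 months replicate 2 (-0.53, under 1.5-fold). Of 9 negative regulators, Socs1, which blocks JAK kinases, fell after 4 months of CS in both genotypes (-1.28 in WT, adjusted p = 0.0042, and -1.67 in RAGE null mice, adjusted p = 0.00080). In RAGE null mice Socs3 (-1.76, adjusted p = 0.0072) and Tnfaip3 (-1.0, adjusted p = 0.0015), feedback inhibitors of cytokine and NF-κB signalling, fell with it. Among controls Socs3 was lower in WT than RAGE null mice at 4 months (-1.77, adjusted p = 0.0087) and at 7 days (-0.92, adjusted p = 0.0210). The other calls of this paragraph at 4 months held without that library.

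A wider list of 59 other type I ISGs, of which 50 are in the table, gave calls of its own. After 7 days of CS in WT mice 1 of 49 tested was higher (Ly6a) and 5 lower (Mndal, Ifi203, Pyhin1, Slfn4 and Ddx60), against 2.26% of all genes called, and in RAGE null mice 0 were higher and 1 lower, against 0.439%. After 4 months of CS 0 of 46 were higher and 6 lower in WT (5.67% of all genes called), and 1 higher and 8 lower in RAGE null mice (7.27%). WT exceeded RAGE null mice in 3 (Slfn4, Ddx60 and Pyhin1) with 0 lower among controls of 7 days (4.78% of all genes called), in 3 with 1 lower among controls of 4 months (6.97%), and in 1 with 0 lower, Pyhin1 (1.41, adjusted p = 0.0193), among CS-exposed mice of 4 months (4.94%). With the library labelled RAGE null control 4 months replicate 2 left out, the counts were 1 higher and 9 lower after CS in RAGE null mice, and 2 higher and 2 lower among controls of 4 months, where Pyhin1 was no longer called. Pyhin1, Mndal and Ifi203 belong to the interferon-inducible family of PYHIN proteins. None was called between CS-exposed mice of 7 days. The medians of this list lay between -0.08 and 0.09 in the 8 comparisons.

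Of 33 genes listed as targets of interferon gamma, 25 were tested, and 3 were called between genotypes after 4 months of CS, against 4.94% of all genes. In all, 15 lay above 0 and 10 below, with a median of 0.09. WT mice had more Cxcl10 (4.98 ± 2.26 against 0.833 ± 0.283 CPM, SD, n = 4 each, log2 fold change 2.54, adjusted p = 0.0183) and more Cxcl9 (3.58 ± 0.619 against 0.897 ± 0.226 CPM, 1.97, adjusted p = 0.00027), chemokines that draw activated T cells, and more of the GTPase Gbp6 (1.23, adjusted p = 0.0061), and no gene of the list was called lower. Cxcl10 also responds to type I interferon. Control mice differed in genes of this list too. At 7 days 2 of 25 were called higher in WT (Cxcl9, 1.16, and Nlrc5, 0.70), against 4.78% of all genes called. At 4 months 3 were called higher in control WT mice (Cxcl9, 1.14, Nlrc5, 0.72, and Gbp4, 1.05), against 6.97%. At both times 0 were called lower. With 4 months of CS, 4 genes of this list fell in WT (Gbp4, Gbp9, Cxcl9 and Gbp8) and 5 in RAGE null mice, and 0 rose in either, against 5.67% and 7.27% of all genes called. When the library labelled RAGE null control 4 months replicate 2 was left out, 4 fell in RAGE null mice, where Gbp9 was no longer called. In that fit 1 rose in WT mice, and 4 were higher in CS-exposed WT than RAGE null mice. Among controls of 4 months 6 were then higher in WT, Cxcl9, Cxcl10 and Gbp6 among them, against 11.3% of all genes called. In the same comparisons of CS 5 of 6 monocyte markers fell in both genotypes, 5 of 6 dendritic cell markers in WT and 3 in RAGE null mice, and 2 of 3 T and NK cell markers in WT and 1 in RAGE null mice. T and NK cell markers summed to 3.88 to 9.72 CPM in control and 1.01 to 2.82 CPM in CS-exposed WT mice of 4 months, and to 1.43 to 7.65 and 1.92 to 6.0 CPM in RAGE null mice, and their part was not tested.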

How the data were processed

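AM RNA was sequenced from 31 mice. Per the labels, the authors aligned reads to the mm10 build of the mouse genome with Novoalign, and their methods count them per Ensembl gene with USeq after reads with more than 1 location were removed. The authors deposited 1 table of raw counts and FPKM per gene and library, in which the largest count of every gene is at least 20. The 16 columns of the authors' own comparisons, log2 ratios and scores of adjusted p, were not used. The counts deposited were tested, and the deposited FPKM values serve only to rank levels between genes.

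Counts were fitted with edgeR 4.0.16 in R 4.3.3 for each time point on its own, with 1 coefficient per group, default filtering by group (minimum count 10, minimum total 15), TMM scaling and the 2-sided quasi-likelihood F test, Benjamini-Hochberg adjusted over all genes tested (13220 at 7 days, 13045 at 4 months, with 37 and 36 ISGs). Called genes have a fold change of 1.5 or more with an adjusted p under 0.05. WT is always set over RAGE null. Responses at 4 months and 7 days were compared in 1 fit of all libraries with 13408 genes. CPM values use TMM factors over the 31 libraries, and ± is the SD. Counts were simulated for the 7-day comparison of CS with control in WT mice. Recovery meant an adjusted p under 0.05 in the right direction, without the fold threshold. Of genes changed by 1.5-fold 28 of 50 were recovered, and of those changed by 2-fold 40 of 50. At 4 months these were 29 and 42. The changed genes were drawn from all genes tested, so these shares do not apply to the ISGs of low level, which vary more. Alternatives were each library left out in turn, a block for replicate number, a fit of only the libraries compared, no fold threshold, 20 or more counts in all libraries, no filter, the size factors of DESeq2 within edgeR, and DESeq2 1.42.0 itself. Figures used Python 3.11.15 with pandas 2.3.3 and matplotlib 3.10.9. Nothing says more of the replicates than that each is a separate mouse.

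The ISGs, the other gene lists and the tests were chosen with earlier results of these data known. Genes named are every ISG called, the 4 with the largest fold change in each comparison of 2 groups among those whose mean log2 CPM is 1 or more, a fixed set of 14 across the roles (Irf7, Irf9, Stat2, Usp18, Isg15, Ifit1, Ifit3, Oasl2, Rsad2, Mx1, Ddx58, Ifih1, Bst2 and Ifitm3), those with the highest and lowest FPKM, and up to 4 called genes of each other list. Others were named after their values were seen. Some genes of the other lists are not reported here.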

Additional observations from a re-analysis of the deposited data

Results flagged for a closer look

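In 70 groups of 4 mice, which are the CPM of the 9 called ISGs and the mean log2 CPM of all ISGs in the 7 groups of that size, 3 held a library far from the other 3 by Dixon's ratio, which chance gives in about 1 in 20 groups. Isg15 was at 5.41 CPM in control RAGE null replicate 3 of 7 days, against 4.12 to 4.33 CPM in the other 3 mice. Isg20 was at 1.14 CPM in CS-exposed RAGE null replicate 1 of 4 months, against 1.58 to 1.64 CPM. Rsad2 was at 6.23 CPM in the library labelled RAGE null control 4 months replicate 2, against 1.89 to 2.51 CPM. The response of Stat2 to CS in RAGE null mice differed between 4 months and 7 days by -0.58 on the log2 scale (edgeR, adjusted p = 0.0367).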

How the results depend on the processing

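No call among the ISGs reversed in any setting. The counts of ISGs called that moved by over 1.5 times were, without a fold threshold, 4 for CS against control in WT mice at 7 days, 5 for the genotypes in control mice at 7 days, and at 4 months 4 for CS in WT, 8 for CS in RAGE null and 6 for the genotypes in control mice, and 1 for the difference of responses in RAGE null mice. DESeq2 called 2 for CS in WT mice at 7 days, and 6 and 10 for the genotypes in control and CS-exposed mice at 4 months. With at least 20 counts in every library, which leaves fewer ISGs, the counts were 2 for CS in WT mice at 7 days, 1 for CS in RAGE null and 2 for the genotypes in CS-exposed mice at 4 months, and 1 for the difference of responses in RAGE null mice. With only the libraries compared they were 2 for CS in WT mice and 1 for the genotypes in control mice at 7 days. Where no construction of the setting shows a cause, the cause was not tested. The counts of this section stand without the share of all genes called in the same setting. They therefore do not tell a change in ISGs from a change in all genes.

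No source says whether the replicate numbers pair the mice. Same-numbered libraries had a mean correlation of 0.0028 (-0.119 to 0.160) at 7 days and 0.029 (-0.228 to 0.201) at 4 months. Low correlations do not exclude a pairing. With the number as a block 0 ISGs were called for CS in WT mice at 7 days, and at 4 months 4 for CS in RAGE null mice and 6 and 10 for the genotypes in control and CS-exposed mice.

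Leaving out 1 library at a time gave 0 to 3 ISGs called for CS in WT mice at 7 days, 0 to 5 for the genotypes in control mice at 7 days, 0 to 2 for the interaction at 7 days, 1 to 5 for CS in RAGE null mice at 4 months, 1 to 8 and 1 to 9 for the genotypes in control and CS-exposed mice at 4 months, and 0 to 3 for the difference of responses in RAGE null mice. It gave 0 in the other comparisons. Over all settings the median of the ISGs kept its sign in 6 of the 8 comparisons of 2 groups. The exceptions were CS in RAGE null mice at 7 days (-0.09 to 0.02) and CS in WT mice at 4 months (-0.15 to 0.02). The 18 ISGs under 10 CPM, among them 7 of the 9 called genes, had a within-group SD of 0.58 log2 units in the median, against 0.14 for the other 19 and 0.29 for all genes from 1 to 10 CPM. The cause of that spread was not tested, and it widens the errors of these ISGs.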

Other observations

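Outside the list, the genes whose deviations from the group mean were most like the mean deviation of the ISGs over the 31 libraries were Gm4902 (Pearson r = 0.85, Spearman rho = 0.81), I830012O16Rik (0.82 and 0.83), Slfn5 (0.81 and 0.72), Gm14446 (0.78 and 0.80), Mnda (0.76 and 0.66), 4933403F05Rik (0.73 and 0.73), Phf11 (0.72 and 0.66), Gbe1 (0.69 and 0.73), Hmgxb3 (0.69 and 0.69) and Usp20 (0.69 and 0.67). These values describe the libraries, which all the genes share, and no test was made of them.

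Ifi44, which was too low for the test at 4 months, had 0, 2, 1 and 3 counts in control WT mice, 2, 0, 2 and 0 in CS-exposed WT mice, 15, 7, 14 and 7 in control RAGE null mice and 2, 5, 3 and 8 in CS-exposed RAGE null mice. Every control RAGE null mouse was above every WT mouse.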
